A study of Mus musculus with 30 samples.

Results

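Hand1, Hand2, Foxf1, Isl1, Gata5, Tbx20, Nkx2-5, Tbx5, Mef2c and Foxc1 are 10 mouse transcription factor genes known from cardiac and extraembryonic mesoderm. They were taken by name from the 55487 genes counted in 18 RNA-seq libraries, and all 10 were found by Ensembl identifier. By its title the series concerns ETV2 or ER71, a factor of the ETS family that directs mesoderm to blood and vessel fates, and the histone H3 lysine 9 demethylase KDM4A. Every library is labelled mouse embryonic stem cell. In experiment 1 the line iETV2, in which doxycycline (DOX) turns on ETV2, was profiled without DOX (3 libraries) and with DOX (3 libraries). In experiment 2 the line iETV2-KDM4A (H188A), called the H188A line here, was profiled in the same 2 states with 3 libraries each. It carries, beside inducible ETV2, the H188A form of KDM4A, a histidine-to-alanine change known to remove demethylase activity. Experiment 3 compared 3 libraries of genotype Control with 3 labelled KDM4A/4C DKO, where both demethylase genes are said to be knocked out, and states no DOX. By the labels experiment 3 was a separate sequencing project. Experiment 4 deposited H3K9me3 regions for 6 ChIP libraries, 3 labelled DOX and 3 Control. The labels give no day of differentiation for the RNA, no parent line for experiment 3, and no number of clones.

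In the mouse embryo, HAND1 and FOXF1 are prominent in extraembryonic and lateral plate mesoderm, the source of the allantois, amnion and yolk sac mesoderm. ISL1, MEF2C, GATA5, TBX20, NKX2-5, TBX5 and HAND2 act together in the heart fields, where muscle, smooth muscle and endocardial cells arise from multipotent progenitors. FOXC1 is best known from paraxial and intermediate mesoderm and from vessels. ETV2 is known to favour endothelial and blood fates over cardiac fate in shared mesodermal progenitors.

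The RNA libraries held 40334911 to 68970038 counts each, and levels are given as CPM, the count scaled to a library total of 1e+06, with the SD over 3 libraries. CPM is not divided by gene length, so levels were compared between groups for 1 gene and not between genes. The labels do not say that replicates were separate cultures, so p-values measure the spread between these libraries, which may be technical. Etv2 averaged 2.93 CPM without DOX and 18.6 CPM with DOX in iETV2, and 0.376 and 15.2 CPM in the H188A line. Kdm4a was 85.3 and 87.3 CPM in iETV2 and 83.5 and 86.9 CPM in the H188A line, without and with DOX. In experiment 3 Kdm4a averaged 54.6 CPM in control and 43.9 CPM in the libraries labelled KDM4A/4C DKO. Kdm4c was 30.7 CPM in control and 45.5 CPM in those libraries, which is higher although the label names a knockout. Gene totals cannot show which exons are missing, so these values check neither deletion. Summed CPM of 8 pluripotency genes was 50.5 to 54.6 in the experiment 3 control, against 1329 to 1387 in the libraries labelled KDM4A/4C DKO and 646 to 1720 in experiments 1 and 2. The embryonic stem cell label of the experiment 3 control therefore stands beside low pluripotency RNA, with Pou5f1 at 22.8 CPM. Replicate 1 of the untreated H188A line also stood apart: 1754 odorant, vomeronasal and trace amine receptor genes summed to 598 CPM there, against 195 and 49.1 CPM in the other 2 libraries. In that group 7 of the 10 factors (Hand2, Foxf1, Gata5, Tbx20, Nkx2-5, Tbx5 and Mef2c) had the same order of libraries as that sum. The share of all genes with that order was not counted, so it is not known to be particular to the factors. The part of that sum in their levels was not tested.

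The RefSeq promoter table (GRCm38.p6) matched 7 of the 10 factors, with 9 start sites, and held no entry for Hand1, Foxf1 or Tbx5. The 250 bases before the start are shown for the 3 matched factors with the largest rise after ETV2 induction (Hand2, Isl1 and Tbx20), for the first Mef2c start, which holds the most ETS cores, and for Foxc1, which fell. Capitals mark GGAA, the core that ETS factors such as ETV2 bind, or TTCC, the same core on the other strand. The Hand2 window lies on the plus strand at chr8:57320733-57320982, Isl1 on the minus strand at chr13:116309689-116309938, Tbx20 on the minus strand at chr9:24774304-24774553, Mef2c on the plus strand at chr13:83503784-83504033, and Foxc1 on the plus strand at chr13:31806396-31806645. Each is written 5′ to 3′ on its gene's strand.
Hand2: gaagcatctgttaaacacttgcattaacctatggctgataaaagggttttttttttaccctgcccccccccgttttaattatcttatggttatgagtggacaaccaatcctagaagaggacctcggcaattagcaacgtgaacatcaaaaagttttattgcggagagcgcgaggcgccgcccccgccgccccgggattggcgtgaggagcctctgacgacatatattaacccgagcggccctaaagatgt
Isl1: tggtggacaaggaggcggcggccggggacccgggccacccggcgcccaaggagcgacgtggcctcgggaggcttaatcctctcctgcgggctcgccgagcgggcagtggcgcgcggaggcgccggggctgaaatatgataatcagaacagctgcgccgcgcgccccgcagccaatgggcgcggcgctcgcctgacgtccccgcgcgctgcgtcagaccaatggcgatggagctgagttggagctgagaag
Tbx20: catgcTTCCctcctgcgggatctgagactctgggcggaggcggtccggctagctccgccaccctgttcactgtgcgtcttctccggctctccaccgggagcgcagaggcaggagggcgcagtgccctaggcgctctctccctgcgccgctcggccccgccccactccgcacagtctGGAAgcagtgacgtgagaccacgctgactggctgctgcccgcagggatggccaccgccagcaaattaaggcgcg
Mef2c: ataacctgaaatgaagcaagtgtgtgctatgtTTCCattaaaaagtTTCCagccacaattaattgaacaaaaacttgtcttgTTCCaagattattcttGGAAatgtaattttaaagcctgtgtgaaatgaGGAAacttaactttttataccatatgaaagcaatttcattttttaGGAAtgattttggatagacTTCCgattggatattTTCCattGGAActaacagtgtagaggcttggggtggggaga
Foxc1: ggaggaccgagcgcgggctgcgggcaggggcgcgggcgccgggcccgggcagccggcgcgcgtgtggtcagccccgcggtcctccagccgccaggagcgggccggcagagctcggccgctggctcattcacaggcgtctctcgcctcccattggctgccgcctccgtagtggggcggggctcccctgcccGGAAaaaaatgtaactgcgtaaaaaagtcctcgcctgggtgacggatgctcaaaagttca
Motifs were searched on both strands, and each CCGGAA is also counted as GGAA. The Hand2 and Isl1 windows held no GGAA, the Tbx20 window held 2 and the window of the first Mef2c start 9. The windows of Mef2c starts 2 and 3, not shown, held 2 and 1. The Foxc1 window held 1, which is also the only CCGGAA in a window of these factors. GGAA occurs in 93.45% of 32851 promoter windows of this length and CCGGAA in 12.03%. The motif AGATAA, which GATA factors bind, was found in the Hand2 window and in 9.988% of all windows. The motif AGGTGT, which T-box factors bind, was found in none of the 5 windows shown and in 11.83% of all. CANNTG, the E-box that HAND-type factors bind, occurred 2 times in the Hand2 window, 1 time in the Isl1 window and 2 times in the Mef2c window, against 66.22% of all windows with at least 1. These are matches of letters and not measured binding.

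**Figure D1:**
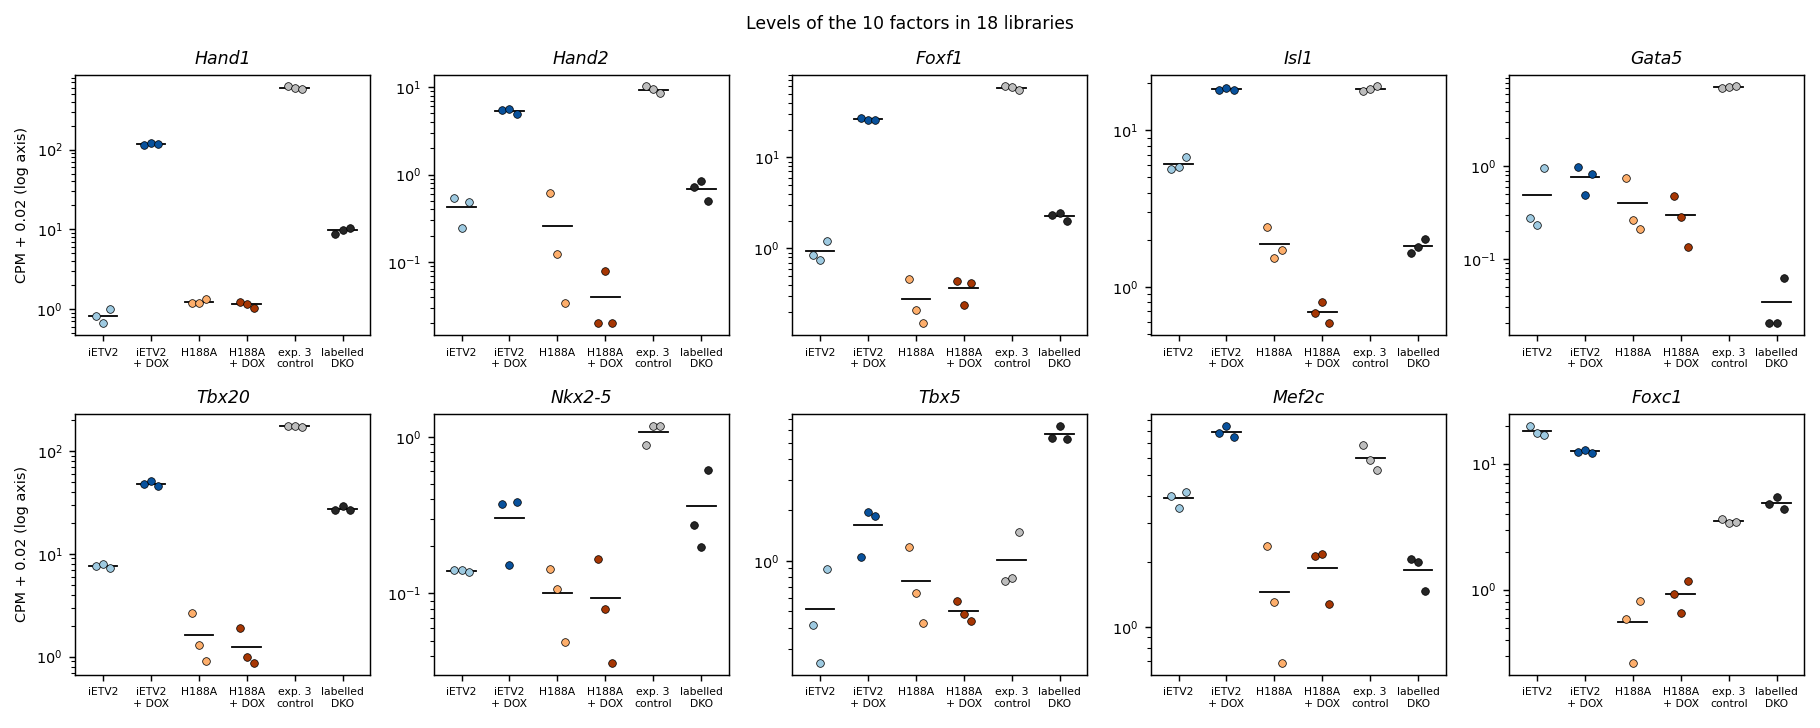
Level of each of the 10 factors in every RNA library, as CPM plus 0.02 on log axes that differ between panels. Points are libraries, 3 per group, and lines are group means. In iETV2 the DOX libraries lie above the untreated ones for 8 factors and below them for Foxc1. The 8 include a factor that was too low to be tested. The share of all genes whose libraries lie apart in this way was not counted, so the separation is not known to be particular to the factors. The experiment 3 control has the highest mean for 7 of the 10.

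Inducing ETV2 in iETV2 raised 7 of the 10 factors and lowered 1. Hand1 went from 0.804 to 118 CPM, Foxf1 from 0.909 to 26.1 CPM and Tbx20 from 7.59 to 47.9 CPM. Hand2, Isl1, Tbx5 and Mef2c also rose. Foxc1 fell, Gata5 did not pass the test, and Nkx2-5 was too low to be tested. Of 22025 genes tested, 13.7% rose and 13.3% fell at an adjusted p under 0.05 (edgeR quasi-likelihood test, Benjamini-Hochberg over all genes tested). The median log2 difference was 1.75 over the 9 tested factors and 0.00236 over all genes. In bulk RNA a change in the share of cells of a type and a change in RNA per cell cannot be told apart.

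Hand1 (ENSMUSG00000037335, chr11:57828713-57832147), a bHLH factor required for extraembryonic mesoderm and early heart, measured 0.790, 0.637 and 0.986 CPM without DOX and 115, 122 and 116 CPM with DOX. The libraries of the 2 groups were far apart. The log2 difference was 7.24 ± 0.108 (SE, n = 3 and 3), a 151-fold rise with an edgeR adjusted p of 1.05e-15. Hand2 (ENSMUSG00000038193, chr8:57320983-57324517), its bHLH relative in the right ventricle and limb, measured 0.515, 0.227 and 0.470 CPM and then 5.39, 5.599 and 4.89 CPM. Every DOX library was above every untreated one. It rose by a log2 of 3.75 ± 0.251 (edgeR adjusted p = 1.01e-08).

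Foxf1 (ENSMUSG00000042812, chr8:121084386-121088154), the forkhead factor of the allantois and the splanchnic mesoderm, measured 0.825, 0.728 and 1.17 CPM without DOX. With DOX it measured 26.8, 25.9 and 25.5 CPM, again with no overlap. Its log2 rise was 4.89 ± 0.128 (edgeR adjusted p = 1.81e-13).

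Isl1 (ENSMUSG00000042258, chr13:116298270-116309688) encodes the LIM-homeodomain factor of second heart field progenitors, and also of motor neurons. It was already measurable without DOX at 5.65, 5.84 and 6.74 CPM, and reached 18.0, 18.7 and 18.1 CPM with DOX. The rise was 1.61 ± 0.0898 on the log2 scale (edgeR adjusted p = 1.20e-09). The 13 neuron and motor neuron markers did not rise with it: 0 of the 12 tested rose (edgeR, also 0 at an unadjusted p under 0.05) and 5 fell, and their summed level was 88.2 to 96.7 CPM without and 45.2 to 52.5 CPM with DOX.

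Among the T-box genes, Tbx20 (ENSMUSG00000031965, chr9:24720812-24774303), a repressor and activator in cardiac progenitors and endocardium, measured 7.61, 7.98 and 7.19 CPM and then 47.2, 50.98 and 45.4 CPM. Its libraries did not overlap, and the log2 rise was 2.66 ± 0.0866 (edgeR adjusted p = 2.18e-12). Tbx5 (ENSMUSG00000018263, chr5:119796514-119885220), the first heart field and forelimb factor, was low throughout, at 0.395, 0.227 and 0.869 CPM without and 1.04, 1.93 and 1.84 CPM with DOX. Its rise of 1.75 ± 0.431 (edgeR adjusted p = 0.00587) lost its call without DOX replicate 2, where the log2 value was 1.52 and the adjusted p 0.0560.

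Mef2c (ENSMUSG00000005583, chr13:83504017-83667079), a MADS-box factor of heart and endothelium, measured 3.99, 3.52 and 4.18 CPM and then 7.78, 8.41 and 7.49 CPM, a log2 rise of 1.04 ± 0.121 (edgeR adjusted p = 5.79e-06). Gata5 (ENSMUSG00000015627, chr2:180325088-180335503), a zinc finger factor of endocardium and endoderm, measured 0.258, 0.212 and 0.939 CPM without and 0.966, 0.469 and 0.800 CPM with DOX. Its groups overlapped, and the log2 difference of 0.73 ± 0.567 did not pass (edgeR adjusted p = 0.419). Without untreated replicate 3, the highest of its group, the value was 1.63 and the adjusted p 0.0454. Nkx2-5 (ENSMUSG00000015579, chr17:26838664-26844988), the homeodomain factor of committed cardiac cells, lay at 0.117 to 0.121 CPM without and 0.132 to 0.364 CPM with DOX. Those libraries did not overlap, but the gene was under the low-count filter and has no test.

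Foxc1 (ENSMUSG00000050295, chr13:31806646-31810635) moved the other way, from 19.98, 17.3 and 16.9 CPM to 12.3, 12.9 and 12.2 CPM. The log2 fall was -0.52 ± 0.0924 (edgeR adjusted p = 0.000394). With all 12 libraries of experiments 1 and 2 in the fit the same value had an adjusted p of 0.0840, so this call depends on whose spread is used. Its close relative Foxc2, a paraxial mesoderm and vessel factor, fell from 9.56 to 1.79 CPM (log2 -2.39 ± 0.16, edgeR adjusted p = 7.83e-09). Of 10 tested paraxial mesoderm markers, 5 fell, including Foxc2, Meox1 (-2.26) and Pax3 (-1.29), and 2 rose, Msgn1 (2.44) and Tbx6 (0.94).

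Other genes of the same territories were counted from lists. Among 15 close relatives of the factors, 13 were tested, 7 rose and 3 fell. Tbx3, a T-box repressor of the conduction system and extraembryonic tissues, went from 5.57 to 139 CPM (4.65 ± 0.11), and Tbx2, its nearest relative, from 0.674 to 5.13 CPM (2.98 ± 0.23). Tbx4, the T-box gene of allantois and hindlimb, went from 0.501 to 3.29 CPM (2.78). Gata4, a heart and endoderm GATA factor, went from 38.0 to 94.2 CPM (1.32 ± 0.07). The other relatives that rose were Foxf2 (1.93), Gata6 (0.47) and Mef2a (0.38), and those that fell were Foxc2 (-2.39), Tbx1 (-1.78) and Mef2d (-0.34). Of 15 extraembryonic mesoderm and allantois genes 12 rose and 1 fell, with a median log2 of 1.85. Msx1 and Msx2, homeobox targets of BMP signals, rose by 3.77 ± 0.09 and 5.47 ± 0.16, and Bmp4, a BMP ligand made by extraembryonic mesoderm, rose by 3.25 ± 0.08. Postn, a matrix protein gene, fell (-2.68 ± 0.34).

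Early cardiac mesoderm and heart field genes moved in both directions, with 7 of 17 higher and 2 lower. Besides Bmp4, Wnt5a (2.32), a noncanonical WNT ligand, and Pdgfra (1.53), a receptor of cardiac and paraxial mesoderm, rose. Bmp2 (-0.47) and Wnt11 (-0.51) fell. Endothelial markers moved with the factors: 13 of 14 rose, and their summed level was 27.9 to 34.8 CPM without DOX and 518 to 526 CPM with DOX. Markers of trophoblast, another tissue that uses Hand1, summed to 461 to 505 CPM and 430 to 456 CPM, with 7 of 13 higher and 4 lower. Among the higher ones were Gata3 (1.76 ± 0.12), Cdx2 (1.64 ± 0.10) and Eomes (0.90 ± 0.07), and among the lower ones the keratin genes Krt7 (-1.93), Krt18 (-1.54) and Krt8 (-1.25). Prl3d1 and Tpbpa, which mark trophoblast giant cells and spongiotrophoblast, were at or under 0.149 CPM in all 18 libraries. Endoderm markers summed to 370 to 393 CPM and 243 to 254 CPM, with 4 of 13 higher and 4 lower. The part of these cell types in the levels of the factors was not tested.

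In the H188A line none of the 10 factors rose with DOX, 1 fell, 7 did not pass and 2 were too low to test. Isl1 is the one that fell. By edgeR 0 factors were also higher at an unadjusted p under 0.05, and DESeq2 likewise called Isl1 lower and 0 factors higher. Of 21086 genes tested, 2.22% rose and 0.801% fell. The median was -0.19 over the 8 tested factors and -0.0123 over all genes.

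Hand1 measured 1.17, 1.15 and 1.32 CPM without DOX and 1.20, 1.14 and 1.01 CPM with DOX in this line, so the groups overlapped. The log2 difference was -0.07 ± 0.264 (edgeR adjusted p = 0.896). Foxf1 measured 0.446, 0.191 and 0.130 CPM and then 0.415, 0.220 and 0.403 CPM, a difference of 0.52 ± 0.656 (edgeR adjusted p = 0.664). The SE of both was larger than in iETV2, and a p that misses the threshold does not show that the level was the same.

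Hand2 was near the limit of detection. It had 24, 6 and 1 counts without DOX and 0, 3 and 0 with DOX, where 3 counts are taken as the floor. The ratio of untreated to DOX was 9.94, with a 95% counting interval of 3.10 to 50.8, and 24 of the 31 untreated counts came from the library with the high receptor sum. Tbx20 measured 2.63, 1.27 and 0.884 CPM and then 1.87, 0.979 and 0.854 CPM (-0.30 ± 0.444, edgeR adjusted p = 0.708). Mef2c measured 2.33, 1.29 and 0.667 CPM and then 2.11, 2.16 and 1.26 CPM (0.44 ± 0.416, edgeR adjusted p = 0.554). In both genes the untreated libraries spread over the range of the DOX libraries.

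Isl1 measured 2.40, 1.51 and 1.70 CPM without DOX and 0.663, 0.779 and 0.564 CPM with DOX, and all DOX libraries were lower. The log2 fall was -1.43 ± 0.294 (edgeR adjusted p = 0.0367). The call was lost without untreated replicate 1 or 2, or without DOX replicate 1, 2 or 3, with adjusted p from 0.0618 to 0.157 and values from -1.57 to -1.24. Of 13 neuron and motor neuron markers, 3 also fell, among them Neurod4 (-1.88 ± 0.16), and their summed level was 148 to 151 CPM without and 102 to 121 CPM with DOX. Their part in the Isl1 level was not tested.

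The remaining factors stayed within overlapping ranges in the H188A line. Gata5 was 0.384 ± 0.292 CPM without and 0.276 ± 0.172 CPM with DOX, Tbx5 0.741 ± 0.404 and 0.479 ± 0.0726 CPM, Foxc1 0.537 ± 0.278 and 0.904 ± 0.260 CPM, and Nkx2-5 0.0800 ± 0.0479 and 0.0737 ± 0.0656 CPM (SD, n = 3). Of their close relatives 12 were tested by edgeR and 0 passed in either direction, also at an unadjusted p under 0.05. Of 12 extraembryonic mesoderm genes tested 0 rose and 1 fell (Ahnak, -0.50 ± 0.08), and of 15 early cardiac genes Bmp2 rose (1.17 ± 0.25) and Wt1, an epicardial and intermediate mesoderm factor, fell (-0.71 ± 0.08). Endothelial markers did respond: 9 of 14 rose, with Sox18 at 5.20 ± 0.20 and Egfl7 at 1.22 ± 0.08, and their summed level went from 120 to 133 CPM without DOX to 259 to 281 CPM with DOX. Etv2 itself rose by 5.48 in this line and by 2.68 in iETV2 on the log2 scale. Without DOX its level was lower in the H188A line than in iETV2 (log2 -3.01 ± 0.298, edgeR adjusted p = 5.74e-07). With DOX the difference between the lines did not pass (-0.20 ± 0.190, edgeR adjusted p = 0.437).

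**Figure D2:**
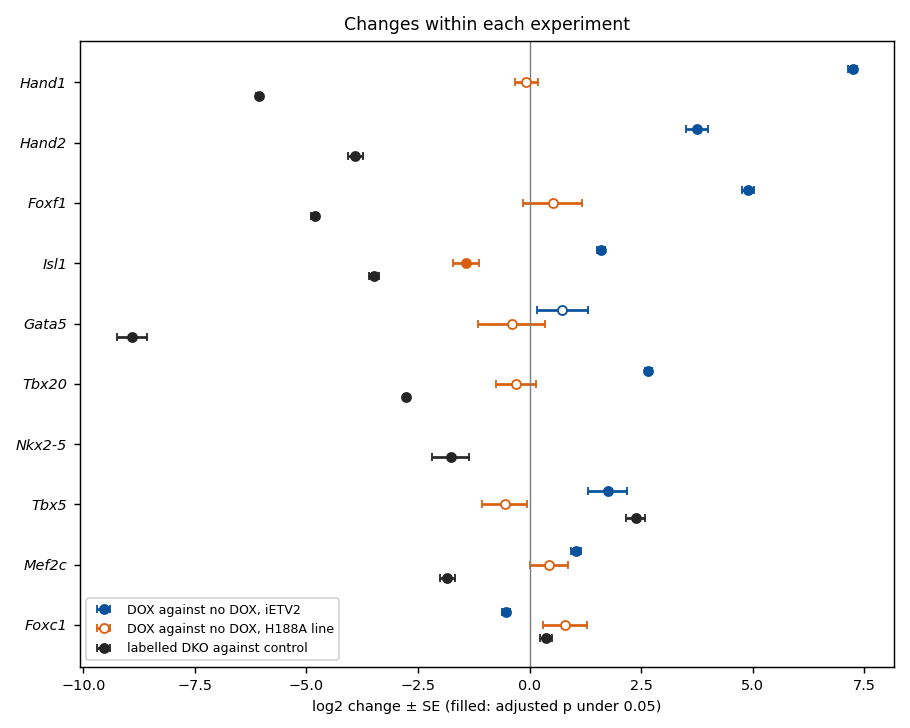
Log2 change of each factor with its SE, for DOX against no DOX in iETV2, DOX against no DOX in the H188A line, and the libraries labelled KDM4A/4C DKO against the experiment 3 control. Filled points passed at an adjusted p under 0.05, and genes under the low-count filter have no point. For Hand1 the 3 values are 7.24, -0.07 and -6.07.

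The difference between the 2 DOX responses was tested directly as a line-by-DOX interaction over the 12 libraries. The response was smaller in the H188A line for 6 of 9 tested factors, higher for Foxc1, and did not pass for Gata5 and Mef2c. Of 25516 genes tested, 8.22% had a higher and 6.2% a lower response in the H188A line. The median was -2.92 over the factors and -0.131 over all genes. Line, experiment and any clone effect cannot be told apart, since each line was used in 1 experiment.

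Hand1 had an interaction of -7.32 ± 0.188 (edgeR adjusted p = 3.23e-12), which ran from -7.42 to -7.16 over the alternatives. Foxf1 had -4.25 ± 0.463, Isl1 -3.02 ± 0.221 and Tbx20 -2.92 ± 0.395. Their adjusted p were 1.05e-05, 1.90e-07 and 9.17e-05 by edgeR. Hand2 was fitted at -7.02 ± 1.26 (edgeR adjusted p = 0.00114), a value that depends on the prior count because only 3 counts lie in the H188A DOX libraries, and which ran from -10.33 to -5.07 over the alternatives.

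Tbx5 (-2.29 ± 0.676, edgeR adjusted p = 0.0329) and Foxc1 (1.31 ± 0.373, edgeR adjusted p = 0.0267) were close to the threshold. The Tbx5 call was lost without any 1 of 8 libraries: iETV2 untreated replicate 1 or 2, iETV2 DOX replicate 2 or 3, H188A untreated replicate 1 or 2, or H188A DOX replicate 2 or 3, with adjusted p from 0.0522 to 0.100. With the receptor sum as a covariate its value was -1.37 (adjusted p = 0.130). The Foxc1 call was lost without iETV2 untreated replicate 1, H188A untreated replicate 2, or H188A DOX replicate 1 or 3, and with the receptor covariate it was 0.92 (adjusted p = 0.0850). Mef2c (-0.57 ± 0.416) and Gata5 (-1.12 ± 0.980) had adjusted p of 0.409 and 0.498.

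Among the genes of the same territories, 9 of 15 extraembryonic mesoderm genes had a lower response in the H188A line and 0 a higher one, with a median of -2.75. Msx1 (-3.99 ± 0.15), Bmp4 (-3.39 ± 0.18) and Msx2 (-5.29 ± 0.37) had the smallest adjusted p among them. Of the close relatives, Tbx3 (-4.72), Tbx2 (-3.25), Tbx4 (-2.96) and Gata4 (-1.09) were lower and Foxc2 (3.25 ± 0.60) was higher. H188A DOX replicate 1 stood apart for 2 relatives: Gata4 averaged 57.6 ± 32.5 CPM (SD, n = 3) in this group, with only 38.1 and 39.6 CPM in replicates 2 and 3, and Gata6 was at 63.6 CPM in replicate 1 against 28.9 and 31.0 CPM. The summed endoderm markers of that group, to which both genes belong, ran from 446 to 912 CPM. Without that library, an alternative chosen after seeing the data, the Gata4 value was -1.68 ± 0.15 (edgeR adjusted p = 1.30e-06), and the other 4 relatives also stayed past the threshold in the same direction. Early cardiac genes gave 7 lower and 1 higher of 17. Endothelial markers gave 9 lower and 1 higher of 14, with Tek (-3.79 ± 0.11) the lower one of smallest adjusted p and Sox18 (2.38 ± 0.35) the higher one.

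The lines differed before induction too. Without DOX, 5 of 9 tested factors were lower in the H188A line than in iETV2 and Hand1 was higher. Across all 25516 genes tested 18.6% were lower and 19.7% higher. Foxc1 differed most, at 18.1 ± 1.66 CPM in iETV2 and 0.537 ± 0.278 CPM in the H188A line (log2 -4.99 ± 0.267, edgeR adjusted p = 4.56e-10). Tbx20 was 7.59 ± 0.396 and 1.59 ± 0.916 CPM (-2.29 ± 0.272), Isl1 6.08 ± 0.581 and 1.87 ± 0.471 CPM (-1.66 ± 0.147), Foxf1 0.909 ± 0.235 and 0.256 ± 0.168 CPM (-1.87 ± 0.315), and Mef2c 3.89 ± 0.340 and 1.43 ± 0.841 CPM (-1.45 ± 0.301), with edgeR adjusted p of 0.00103 or less. Hand1 was 0.804 ± 0.175 CPM in iETV2 and 1.21 ± 0.0944 CPM in the H188A line (0.69 ± 0.148, edgeR adjusted p = 0.00136).

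Hand2, Gata5 and Tbx5 did not pass without DOX. Hand2 was -0.87 ± 0.728 (edgeR adjusted p = 0.406) with all libraries, and -2.71 (adjusted p = 0.00300) without H188A untreated replicate 1, the library with the high receptor sum. With the receptor sum as a covariate it was -2.04 (adjusted p = 0.00992). Pluripotency genes were also higher in the untreated H188A line: 7 of 8 passed, with summed levels of 1622 to 1656 CPM against 656 to 702 CPM. Of 10 paraxial mesoderm markers 6 were lower and 1 higher, including Foxc2 (-6.22 ± 0.41) among the lower. Of the other relatives, Mef2a (-0.36) was lower and Tbx3 (3.09) and Tbx4 (2.71) were higher. The part of cell makeup in the lower Foxc1 level was not tested.

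With DOX more of the factors differed between the lines. In the H188A line 8 of 9 tested factors were lower than in iETV2 and 0 were higher, by edgeR (0 also at an unadjusted p under 0.05) and by DESeq2, beside 17.6% lower and 19.9% higher of all genes. The median was -4.68 over the factors and -0.0823 over all genes. Hand1 was -6.63 ± 0.111, Foxf1 -6.13 ± 0.250, Tbx20 -5.21 ± 0.280, Isl1 -4.68 ± 0.167, Foxc1 -3.67 ± 0.249 and Mef2c -2.02 ± 0.293, with edgeR adjusted p of 4.06e-05 or less. For Hand2 the ratio of iETV2 to the H188A line was 284, with a 95% counting interval of 97.0 to 1381, from 958 against 3 counts.

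Tbx5 (-1.64 ± 0.477, edgeR adjusted p = 0.0123) lost its call without iETV2 DOX replicate 2 or H188A DOX replicate 3. Gata5 (-1.34 ± 0.698, edgeR adjusted p = 0.148) did not pass. Of 13 relatives 6 were lower: Foxc2 (-2.96), Tbx2 (-2.96), Tbx3 (-1.63), Gata6 (-0.60), Mef2b (-0.59) and Mef2a (-0.58). All 8 pluripotency genes were higher in the H188A line with DOX, and their sum was 1426 to 1720 CPM against 646 to 742 CPM. Extraembryonic mesoderm genes gave 10 lower and 0 higher of 15, with Msx1 at -5.63 ± 0.10 and Cdx2, a caudal homeobox gene of allantois and trophoblast, at -6.86 ± 0.30.

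**Figure D3:**
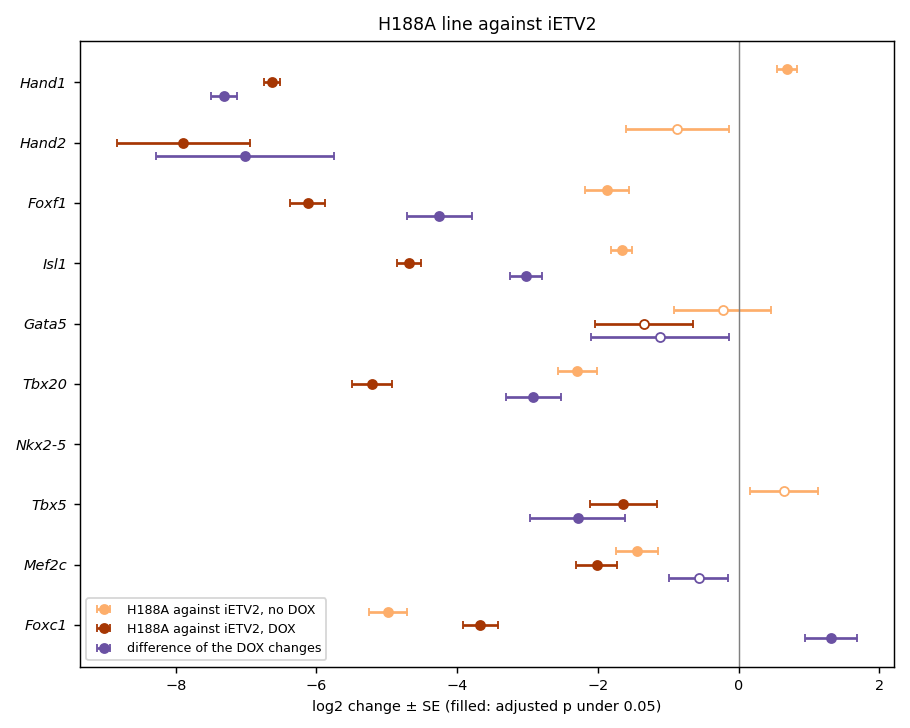
Log2 difference of each factor between the H188A line and iETV2 with its SE, without DOX, with DOX, and the difference between the 2 DOX responses. Filled points passed at an adjusted p under 0.05. Hand1 is at 0.69 without DOX and -6.63 with DOX, while Foxc1 is at -4.99 and -3.67.

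In experiment 3 all 10 factors passed: 8 were lower and 2, Tbx5 and Foxc1, higher in the libraries labelled KDM4A/4C DKO. Gene totals of Kdm4a and Kdm4c do not show a loss of both genes there, and they cannot check the deletions. Hand1, Foxf1, Hand2 and Isl1 were lower by a log2 of 3 or more, and Gata5 was nearly absent. The background was high: 35.6% of 20426 genes were higher and 33.7% lower. The median was -3.13 over the factors and 0.0373 over all genes. No factor's libraries overlapped between the groups. The same held for 8 of 8 pluripotency genes, 15 of 17 early cardiac genes and 14 of 20 cardiac muscle genes. The share of all genes without overlap was not counted.

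Hand1 measured 623, 591 and 584 CPM in control, its highest level in the series, and 8.81, 9.88 and 10.5 CPM in the labelled DKO libraries. The log2 fall was -6.07 ± 0.0599 (edgeR adjusted p = 1.77e-25). Foxf1 measured 60.1, 59.6 and 54.9 CPM and then 2.29, 2.42 and 2.00 CPM (-4.82 ± 0.0841, edgeR adjusted p = 1.60e-21). Both stayed above every library of the H188A line even at the lower level, though those libraries belong to another sequencing project and this was not tested.

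Hand2 measured 10.1, 9.35 and 8.46 CPM in control and 0.694, 0.829 and 0.484 CPM in the labelled DKO libraries (-3.90 ± 0.169, edgeR adjusted p = 9.23e-15). Isl1 measured 17.9, 18.5 and 19.1 CPM and then 1.62, 1.76 and 2.00 CPM (-3.49 ± 0.102, edgeR adjusted p = 9.43e-18). The control level of Isl1 overlapped that of iETV2 with DOX. Of 9 neuron markers tested 6 were higher and 0 lower in the labelled DKO libraries, so Isl1 and this list moved in opposite directions.

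Gata5 measured 6.92, 7.12 and 7.29 CPM in the experiment 3 control and had 0, 0 and 2 counts in the labelled DKO libraries. The ratio was 524 from 1209 against 2 counts, with a 95% counting interval of 145 to 4335 (edgeR adjusted p = 8.60e-16). In the other 4 groups Gata5 averaged 0.276 to 0.745 CPM. Tbx20 measured 172, 175 and 169 CPM in control and 26.6, 28.8 and 26.7 CPM in the labelled DKO libraries (-2.78 ± 0.0468, edgeR adjusted p = 9.22e-22). Mef2c was 5.99 ± 0.802 and 1.82 ± 0.321 CPM (-1.84 ± 0.163, edgeR adjusted p = 1.66e-09). Nkx2-5 measured 0.862, 1.16 and 1.15 CPM and then 0.254, 0.176 and 0.589 CPM (-1.76 ± 0.416, edgeR adjusted p = 0.000771), and this was the one comparison in which it was high enough to test.

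Tbx5 went up where its partners in the heart fields went down. It measured 0.736, 0.765 and 1.45 CPM in control and 5.32, 6.33 and 5.24 CPM in the labelled DKO libraries, its highest level in the series. The log2 rise was 2.38 ± 0.207 (edgeR adjusted p = 1.35e-09). Foxc1 was 3.65, 3.33 and 3.40 CPM against 4.79, 5.40 and 4.38 CPM (0.37 ± 0.136, edgeR adjusted p = 0.0208). That call was lost without control replicate 2 or 3 or without labelled DKO replicate 2, with adjusted p from 0.0541 to 0.128.

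Genes of the same territories were mostly lower too. Of 15 extraembryonic mesoderm genes, 13 were lower and 1 higher, with a median of -3.65. Tbx4 went from 140 to 4.57 CPM (-5.07 ± 0.06), Col1a1, a fibrillar collagen gene, differed by -4.96 ± 0.05, and Cdx2 by -4.48 ± 0.07. Wnt2 was the higher one (0.24 ± 0.10, edgeR adjusted p = 0.0492). Of 13 relatives tested, 8 were lower, with Tbx2 (-3.06), Foxc2 (-2.86), Foxf2 (-2.79), Gata6 (-0.74), Tbx3 (-0.61), Mef2a (-0.23) and Gata4 (-0.20) besides Tbx4, and 2 higher, Mef2b (0.97) and Tbx18 (1.19). Early cardiac genes gave 10 lower, among them Wnt5a (-3.25 ± 0.04) and Bmp2 (-3.59 ± 0.07), and 3 higher, Fgf8 (1.53 ± 0.09), Pdgfra (0.82 ± 0.05) and Mesp2 (1.62 ± 0.22).

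Other markers also differed between the groups of experiment 3. All 8 pluripotency genes were higher in the labelled DKO libraries, Nanog by 4.79 ± 0.05. Endothelial markers were lower in 13 of 13 tested, and summed to 788 to 797 CPM in control and 144 to 149 CPM in the labelled DKO libraries. Trophoblast markers summed to 455 to 471 and 435 to 458 CPM, with 6 of 12 higher and 5 lower. Their part in the levels of the 10 factors was not tested.

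Hand2 and Foxf1 each lie beside a divergent noncoding gene, and these were followed through the same comparisons. Fendrr, a long noncoding RNA of lateral plate mesoderm, has its own start on the opposite strand, 1276 bases before the Foxf1 start, and Hand2os1 starts 124 bases before the Hand2 start, also on the opposite strand. Fendrr measured 0.481, 0.121 and 0.282 CPM without and 5.08, 5.83 and 5.36 CPM with DOX in iETV2, a log2 rise of 4.22 ± 0.31. Hand2os1 measured 0.859, 0.349 and 1.31 CPM and then 2.95, 2.59 and 3.27 CPM, a rise of 1.86 ± 0.34. In both the groups did not overlap.

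In the labelled DKO libraries Fendrr averaged 0.443 CPM against 11.9 CPM in control (-4.88 ± 0.17) and Hand2os1 0.416 against 2.66 CPM (-2.80 ± 0.29). The interaction was -6.98 ± 1.17 for Fendrr and -4.83 ± 1.30 for Hand2os1, with edgeR adjusted p of 0.000625 and 0.0194. In the H188A line with DOX they averaged 0.0335 and 0.112 CPM. The full promoter sequences of Hand2 and Hand2os1 in the RefSeq table run past the start. They overlap over 223 bases (chr8:57320810-57321032) on opposite strands. The 250-base windows before each start, chr8:57320733-57320982 and chr8:57320860-57321109, share a part of that stretch. By the RefSeq positions neither gene overlaps its partner. No source used here gives the strand setting of the counting, so reads from transcripts that run past those ends may not be told apart.

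**Figure D4:**
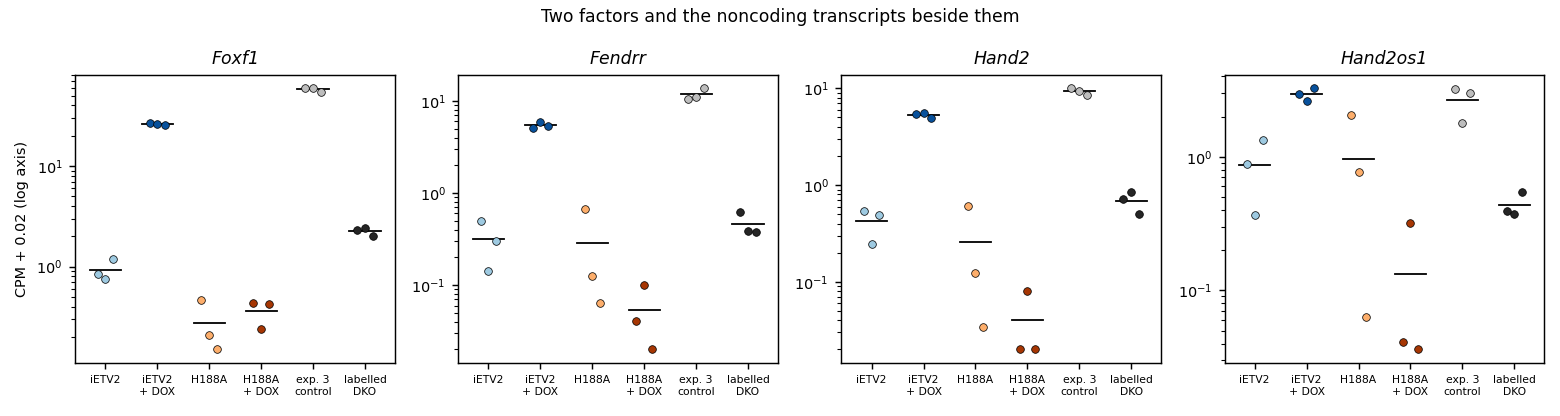
Levels of Foxf1, Fendrr, Hand2 and Hand2os1 in every RNA library, as CPM plus 0.02 on log axes. Points are libraries, 3 per group, and lines are group means. All 4 genes have higher means in iETV2 with DOX than without, and lower means in the libraries labelled KDM4A/4C DKO than in the experiment 3 control.

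Hand1, Foxf1, Hand2 and Tbx20 had much the same pattern over the 18 libraries, while Tbx5 and Foxc1 stood apart from them. Pearson correlations of log2 CPM over the 45 pairs ranged from -0.32 (Gata5 and Tbx5) to 0.96 (Hand1 and Foxf1), with a median of 0.66. These values describe 18 libraries that fall into 6 groups, and the libraries of a group share line or genotype, treatment and experiment. Depth varied within groups, from 40334911 to 68970038 counts in the untreated H188A line. Hand2 and Foxf1 reached 0.94, as did Hand2 and Tbx20, and Foxf1 and Tbx20 reached 0.95.

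Levels of experiment 3, a separate sequencing project, are set beside those of the other experiments without a test. Group and sequencing project cannot be told apart in such a ranking. The order of levels began alike for Hand1, Hand2, Foxf1 and Tbx20, with the experiment 3 control highest, then iETV2 with DOX, then the labelled DKO libraries. For Hand1 the one neighbouring pair in that order whose libraries overlapped was the H188A line without and with DOX. For Hand2 the labelled DKO libraries, untreated iETV2 and both states of the H188A line overlapped from each to the next. Isl1 overlapped between the experiment 3 control and iETV2 with DOX, and between the untreated H188A line and the labelled DKO libraries. Tbx5 was highest in the labelled DKO libraries, and its other 5 groups overlapped from each to the next. Gata5 overlapped in the same way over the 4 groups of experiments 1 and 2, between the experiment 3 control above and the labelled DKO libraries below. Foxc1 had another order, with both iETV2 groups first and the H188A line last. Mef2c was highest in iETV2 with DOX (7.90 ± 0.472 CPM), above the experiment 3 control (5.99 ± 0.802 CPM) with no overlap.

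The genes most like each factor were searched among 14443 genes. Hand1 was closest to Unc5c (0.99), a netrin receptor gene, Apcdd1 (0.99), a WNT inhibitor gene, and Cdx4 (0.98), a caudal homeobox gene. Unc5c and Apcdd1 were also closest to Foxf1, at 0.98 each, followed by Hbb-bh1 (0.98), an embryonic globin gene. Hand2 was closest to Fendrr (0.99), the noncoding gene beside Foxf1 and not the one beside Hand2. Tbx20 was closest to Rgs5 (0.99), a pericyte regulator of G protein signalling, and Prdm6 (0.99), a smooth muscle repressor. Foxc1 was closest to Tes (0.98) and Dkk1 (0.98), the latter a secreted WNT inhibitor gene. Gata5 was closest to Ano1 (0.95), which fell to 0.59 over the 12 libraries of experiments 1 and 2. Of the 30 pairings of a factor with a gene, 4 recurred in the ranking over those 12 libraries.

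H3K9me3, the repressive mark that KDM4 enzymes remove, was examined at the factors in the deposited regions of the 6 ChIP libraries. None of the 10 gene bodies held a region in any library. Of 21900 protein-coding genes 28.38% held one in at least 1 library, and 19.57% to 22.64% per library. These shares were not matched for gene length, and a short gene has less room to overlap a region. They therefore do not show that the mark is depleted at the factors. The titles of the 3 DOX libraries differ in day or construct (EB-DOX-D2, EB-DOX-D3 and EB-Er71-Flag-DOX-D2), so they are not like replicates.

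Within 5 kb on each side 3 factors had a region, against 38.33% of all protein-coding genes. Tbx20 had one in 3 Control libraries and 1 DOX library, but its nearest region lay 4.212 to 5.012 kb away in every library, so this difference in count sits at the window's edge. Tbx5 had one in 1 Control library, at 0.981 kb, and Nkx2-5 in 1 DOX library, at 2.213 kb. Within 50 kb 6 factors had one, against 77.3% of all genes: Foxf1, Tbx20, Tbx5 and Mef2c in all 6 libraries, Nkx2-5 in 5 and Hand2 in 1.

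For 7 of the 10 factors the nearest region lay more than 10 kb from the gene in every library. For Hand1 the distance was 56.05 to 134.1 kb with a median of 56.35 kb, for Hand2 29.18 to 199.3 kb, and for Isl1 104.5 to 136.7 kb. Foxf1 lay 45.05 to 48.25 kb, Gata5 75.69 to 77.89 kb, Mef2c 16.12 to 18.72 kb and Foxc1 67.65 to 133.4 kb from one. The deposited regions number 37129 to 50838 per library, and a lack of a called region does not show that the mark is absent.

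**Figure D5:**
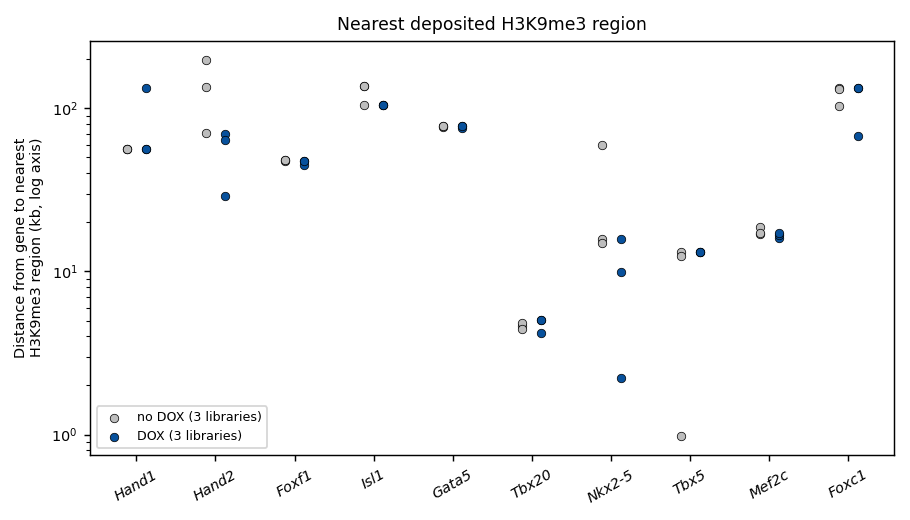
Distance in kb from each factor's gene body to the nearest deposited H3K9me3 region, on a log axis, in 3 libraries without and 3 with DOX. No point lies at 0, and Tbx20 has distances between 4.212 and 5.012 kb in all 6 libraries.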

How the data were processed

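Total RNA was sequenced in 18 libraries and H3K9me3 ChIP DNA in 6. Each library has a deposited table of raw counts by Ensembl gene. The submitters' processing notes name featureCounts 2.0.6, HTSeq 2.0.3, StringTie 2.2.1, STAR 2.7.10b, Picard 3.0.0 and DESeq2 1.18.1 and, without versions, Bowtie, DiffBind and ChIPseeker, and the builds GRCm38 and mm10. The role of each tool and the strand setting are not given in the sources used here. Per the file headers, the ChIP tables list regions with ChIP and input read counts, a p-value, a false discovery rate, a log2 fold change and a score, of which only positions were used; every region has a deposited q-value under 0.05.

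Symbols, positions and promoters came from RefSeq tables (GRCm38.p6). edgeR 4.0.16 (R 4.3.3, limma 3.58.1) was run on genes passing filterByExpr, with TMM scaling, a quasi-likelihood test on group means, Benjamini-Hochberg adjustment over all genes tested and a threshold of 0.05. Each DOX or genotype comparison used its own 6 libraries, and comparisons of the 2 lines used 12. SE values were taken as the log2 change over the square root of F. CPM is the count over the library total, and 3 counts were taken as the floor. Ratios at or under the floor have exact 95% intervals, which cover counting error only. All 10 factors are named, and from each gene list up to 3 genes with the smallest adjusted p per comparison and direction, plus the 2 neighbouring noncoding genes and the relatives that passed; likeness used genes of at least 1 CPM in 1 group mean, with a prior count of 2. The factors and lists were chosen with earlier results of these data known. The scripts were tested on simulated data. Alternatives were other scaling, DESeq2 1.42.0, other filters, a replicate block, the receptor sum as covariate, 12 libraries in the fit, and leaving out each library. Chromatin inputs were not analysed here.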

Additional observations from a re-analysis of the deposited data

Results flagged for a closer look

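For 7 factors the DOX response differed between the 2 lines by the interaction test (edgeR, adjusted p under 0.05), as the difference of log2 changes, H188A line minus iETV2. The values were -7.32 for Hand1, -7.02 for Hand2, -4.25 for Foxf1, -3.02 for Isl1, -2.92 for Tbx20, -2.29 for Tbx5 and 1.31 for Foxc1. The Hand2 value rests on 3 counts in the H188A DOX libraries and ran from -10.33 to -5.07 over the alternatives. The Tbx5 and Foxc1 values lose their call without single libraries, as given above, and line and experiment cannot be told apart.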

How the results depend on the processing

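Of 796 values of single factors under the alternatives, 764 kept their direction and side of the threshold, 29 lost the call, 3 gained it and 0 reversed after a call. The calls lost included 15 of 160 values of the interaction and 7 of 100 of the response to DOX in the H188A line. In the latter the 1 called factor became 0 with the replicate block and with the receptor covariate, and 0 to 1 without single libraries. The 637 called genes became 423 with relative log expression scaling, 1443 with DESeq2, 2032 without the low-count filter, 263 with the replicate block, 122 with the receptor covariate, and 81 to 1839 without single libraries (203, 81 and 1839 without untreated replicate 1, 2 and 3, and 140 and 91 without DOX replicate 2 and 3). The cause was not tested. Whether the replicate numbers pair the samples is not known, and 3 libraries a group cannot decide it. To look at this, each gene's group mean was subtracted from its log2 CPM, and same-numbered libraries of the 2 compared groups were correlated. These deviations, not whole profiles, correlated at -0.0105 to 0.566 in iETV2, -0.211 to 0.349 in the H188A line and -0.00968 to 0.00974 in experiment 3. For DOX in iETV2 the 5939 called genes became 8380 with the replicate block. With the replicate block Isl1 in the H188A line was -1.42 (adjusted p = 0.0762) and the Tbx5 interaction -2.34 (adjusted p = 0.0534). The 0 factors with an H3K9me3 region became 3 within 5 kb and 6 within 50 kb, by the wider window itself. Of the 30 pairings of a factor with a like gene, 4 recurred over 12 libraries. Factors under about 1 CPM rest on few counts, and 3 libraries a group limit every comparison.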

Other observations

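Cardiac muscle genes, which the heart field factors are known to regulate later in heart development, moved in both directions. The list counted here also holds genes outside the contractile apparatus, such as Slc8a1. With DOX in iETV2, 3 of 17 tested cardiac muscle genes rose, Slc8a1 (0.82 ± 0.09), Ttn (0.86 ± 0.12) and Tnni1 (1.11 ± 0.35), and 2 fell, Actc1 (-0.84 ± 0.16) and Myl3 (-1.14 ± 0.40), beside 13.7% and 13.3% of all genes. Their summed level was 63.5 to 81.2 CPM without and 89.2 to 108 CPM with DOX. It was highest in the untreated H188A line, at 210 to 235 CPM, where 5 of 19 genes were higher and 4 lower than in untreated iETV2, beside 19.7% and 18.6% of all genes, and Ttn (2.94 ± 0.12), which encodes the giant protein titin, was among the higher ones. In the libraries labelled KDM4A/4C DKO 5 of 16 were higher, with Ttn at 2.85 ± 0.08, and 9 lower, with Tnni1 at -3.14 ± 0.12 and Actc1 at -5.15 ± 0.37, beside 35.6% and 33.7% of all genes (edgeR quasi-likelihood test, n = 3 and 3, adjusted p under 0.05).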
